A study of Mus musculus with 6 samples.

Results

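MHC class I molecules display peptides made inside a cell to CD8+ T cells. A heavy chain (H2-K1 or H2-D1 here) pairs with beta-2 microglobulin (B2m), receives a peptide in the endoplasmic reticulum and moves to the cell surface. The peptides are cut by the proteasome, in some cells by its immunoproteasome form with the subunits Psmb8 and Psmb9. They are carried into the endoplasmic reticulum by the Tap1 and Tap2 transporter, loaded with the help of tapasin (Tapbp) and trimmed by the aminopeptidase Erap1. Nlrc5 is a transactivator of class I genes. B16, a mouse melanoma line, is known for low class I at its surface, and interferons are known to raise it.

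These 10 genes were chosen by name, H2-D1, H2-K1, B2m, Tap1, Tap2, Tapbp, Nlrc5, Erap1, Psmb8 and Psmb9, and all 10 were found among the 20788 genes listed in at least 1 library. The cells compared were Tyr-L and Tyr-H, B16 melanoma cells of low and high tyrosinase activity, with 3 RNA-seq libraries of each and no treatment. Both were subclones of the same line, which came from a C57BL/6 mouse, and both were grown in low-glucose DMEM with foetal bovine serum. Whether each library of a group was grown as its own culture, and whether a group was 1 subclone or several, is not given in the sources used here, so the p-values measure only the spread between these libraries, which may be technical, and a difference between Tyr-H and Tyr-L cannot be told apart from a difference between the clones taken.

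Values were FPKM, fragments scaled to transcript length and to library size, so levels of different genes could be set side by side per length. An approximate depth was taken from low values inside a window set in advance, which limits the results it can give. It was 18600000 to 20900000 fragments in the Tyr-L libraries and 19000000 to 21100000 in the Tyr-H libraries. There were 17211 to 17413 genes listed in Tyr-L and 16813 to 16949 in Tyr-H. The tyrosinase gene Tyr, which goes with the labels, was 9.52 to 10.7 FPKM in Tyr-L and 19.7 to 23.8 in Tyr-H. Pigment cell genes were present in every library, with Pmel between 776 and 1383 FPKM. Of 16 immune cell markers, 12 were listed in no library, among them Ptprc, Cd3e, Itgam, Adgre1 and Csf1r. The summed FPKM of all 16 was 3.44 to 4.19 in Tyr-L and 4.44 to 4.83 in Tyr-H, nearly all of it from Cd68, a lysosomal protein of macrophages and other cells. In bulk RNA, fewer cells that express a gene and less of its RNA per cell cannot be told apart.

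The promoters of class I heavy chain and B2m genes are known to carry a site for NF-kappaB, a site for interferon regulatory factors and, nearer the start, a module bound by RFX, CREB/ATF and NF-Y factors, through which Nlrc5 acts. The 200 bases before the RefSeq start (GRCm38.p6) are shown for the heavy chain genes and B2m, because they hold the letters of these sites in different arrangements, and for H2-Q4, a non-classical heavy chain whose level did not pass the test. Each is written 5′ to 3′ on the strand of its gene. Capitals mark matches on either strand to the kappaB-type letters (GGG, any 2 bases, TT, any base, CC) and to AANNGAAA (a core shared by interferon regulatory factor sites, which overlaps the longer response element core of GAAA, any 2 bases and GAAA), and the pair TGACG then ATTGG 10 to 30 bases later on the strand of the gene (a CREB/ATF-type core and an inverted CCAAT box). They lie at chr17:34000348-34000547 on the minus strand for H2-K1, chr17:35262894-35263093 on the plus strand for H2-D1, chr2:122147487-122147686 on the plus strand for B2m and chr17:35379417-35379616 on the plus strand for H2-Q4.
H2-K1: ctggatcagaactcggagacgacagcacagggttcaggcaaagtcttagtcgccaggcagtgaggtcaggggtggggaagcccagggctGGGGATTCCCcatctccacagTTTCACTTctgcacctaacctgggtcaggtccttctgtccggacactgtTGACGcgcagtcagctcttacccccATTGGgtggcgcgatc
H2-D1: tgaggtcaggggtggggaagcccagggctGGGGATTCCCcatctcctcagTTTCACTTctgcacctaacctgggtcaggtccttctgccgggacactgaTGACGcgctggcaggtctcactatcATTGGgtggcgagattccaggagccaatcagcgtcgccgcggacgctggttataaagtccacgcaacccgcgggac
B2m: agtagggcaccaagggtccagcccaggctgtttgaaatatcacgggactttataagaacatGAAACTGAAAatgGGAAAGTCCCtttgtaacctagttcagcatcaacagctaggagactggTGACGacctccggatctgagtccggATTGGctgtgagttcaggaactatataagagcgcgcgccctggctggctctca
H2-Q4: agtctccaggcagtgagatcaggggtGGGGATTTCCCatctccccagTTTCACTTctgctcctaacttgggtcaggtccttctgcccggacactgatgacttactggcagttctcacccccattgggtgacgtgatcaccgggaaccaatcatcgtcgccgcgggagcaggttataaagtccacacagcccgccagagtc

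H2-K1, H2-D1 and B2m each held the kappaB-type match, the interferon-factor core and the TGACG then ATTGG pair, in all of them with 20 bases between the pair. In H2-K1 and H2-D1 the kappaB-type match was the same GGGGATTCCC, at -111 to -102 and -171 to -162 from the start, followed by the same TTTCACTT. From a second RefSeq start of H2-K1 the match lay at -125 to -116. The H2-D1 stretch lies inside the gene span given below, so these distances depend on the start taken. In B2m the order of these was turned round, with GAAACTGAAA, the full response element core, at -139 to -130 and the kappaB-type match after it on the other strand. H2-Q4 shared the first part with the classical heavy chains and held no TGACG followed by ATTGG in that range. Among 32851 RefSeq promoter windows of 300 bases, 4.79% held the kappaB-type letters, 23.9% the interferon-factor core, 3.44% the response element core and 0.743% the pair. Each share, also that of the pair, counts matches on either strand. Windows were found for 8 of the 10 genes, and not for Tap2 or Nlrc5. In Erap1 the only match to the response element core, TTTCACTTTC, spanned the start, and Psmb8 held TTCNNNGAA, which 8.3% of windows held. The windows of Tap1, Tapbp and Psmb9 held none of these letters. A match is a description of sequence and was not tested for use in these cells.

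Most of the class I genes were higher in Tyr-H than in Tyr-L, by different amounts. H2-K1 was 2.74-fold higher on its means, H2-D1 and Tapbp 1.74-fold and 1.78-fold, Erap1, Tap1 and B2m between 1.26-fold and 1.43-fold. Tap2 and Nlrc5 did not pass the test, and Psmb8 and Psmb9 were close to the estimated limit of detection. The difference was tested with limma on log2(FPKM + 0.1) over the 14336 genes whose mean reached 0.1 FPKM, with Benjamini-Hochberg adjustment. Of the 10 genes, 9 passed that filter. Psmb9 passed it only through the Tyr-H libraries and had to be higher there, so the counts are given for the other 8. Genes that passed the test (adjusted p of at most 0.05) and were higher in Tyr-H were 6 of the 8, against 17.9% of all genes tested, and lower were 0 of 8, against 39.9%, with 0 of 8 lower at an unadjusted p of at most 0.05 as well. A call also required a log2 fold change of at least 1 in size, which 8.75% of all genes reached in either direction. By this rule 1 of the 8 was called higher, H2-K1, against 2.96% of all genes, and 0 lower, against 5.78%. In 6 of the 8 every Tyr-H library was above every Tyr-L library, against 20.2% of all genes, and in 0 was it the other way, against 43.8%. With Psmb9 the counts are 7 of 9 that passed as higher, 2 called and 7 that did not overlap.

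The median log2 fold change of the 9 genes was 0.51, that of Erap1, and it is the same with Psmb9 at the bound set by its detection floor. Over all genes tested it was -0.15. That general shift moved to -0.01 after median ratio scaling of the libraries and after quantile normalization, and the median of the class I genes rose to 0.66 and 0.70. These scalings also moved the balance of all calls, from 425 higher among 1254 called genes to 538 among 1126 and 611 among 1105. Psmb9 aside, which had to be higher in Tyr-H, none of the tested class I genes changed direction under these scalings or under rescaling to equal totals.

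**Figure D1:**
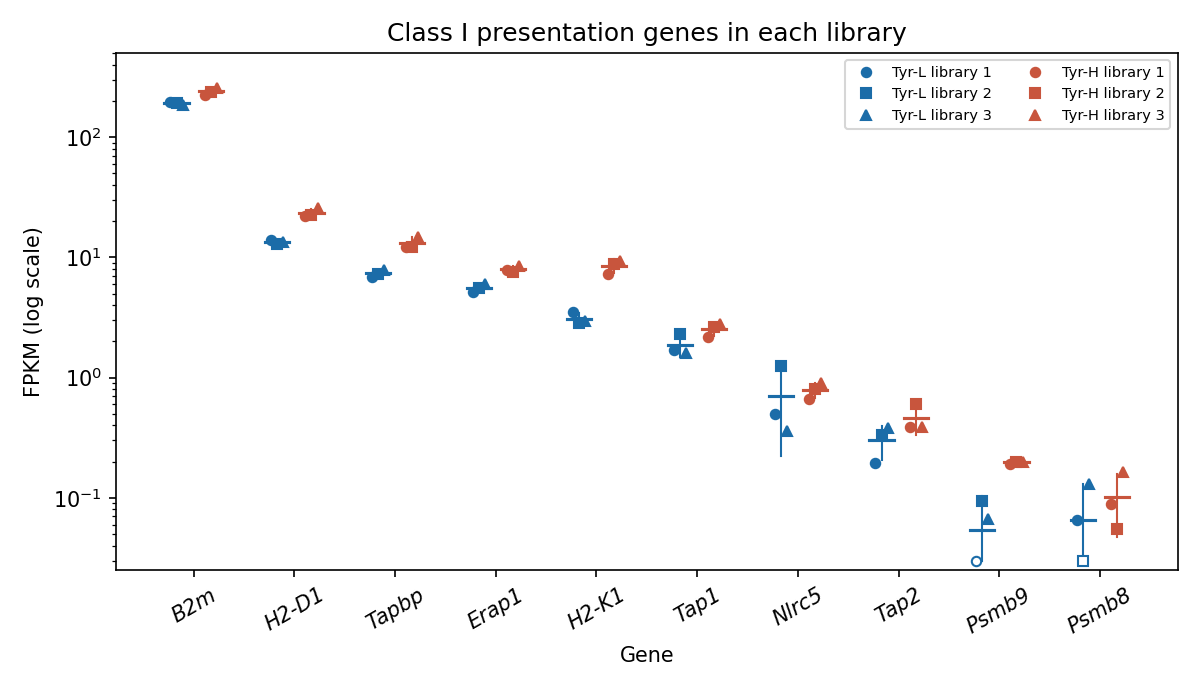
FPKM of each class I gene (log axis) in the 3 Tyr-L libraries (blue) and the 3 Tyr-H libraries (red), with horizontal bars at the means, vertical lines for 1 SD (cut at the bottom of the plot) and open symbols for a library in which the gene was not listed, placed at the bottom. Red lies wholly above blue for B2m, H2-D1, Tapbp, Erap1, H2-K1, Tap2 and Psmb9, and the groups overlap for Tap1, Nlrc5 and Psmb8.

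The heavy chains differed most clearly. H2-K1 (ENSMUSG00000061232, chr17:33996017-34000347, minus strand), the K heavy chain, was 3.50, 2.82 and 2.98 FPKM in Tyr-L libraries 1, 2 and 3 and 7.24, 8.82 and 9.40 in Tyr-H. The lowest Tyr-H library was more than 3 FPKM above the highest Tyr-L library. The means were 3.10 ± 0.356 and 8.49 ± 1.12 FPKM (SD, n = 3 each), and the log2 fold change was 1.42 ± 0.12 (SE; limma adjusted p = 9.3e-06). H2-K1 moved from a mean percentile of 45.5 among the genes listed in a Tyr-L library to 61.1 in Tyr-H.

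H2-D1 (ENSMUSG00000073411, chr17:35262730-35267499, plus strand), the D heavy chain, was 14.0, 13.0 and 13.4 FPKM in Tyr-L and 21.9, 22.6 and 25.7 in Tyr-H. All Tyr-H libraries were higher, around means of 13.5 ± 0.485 and 23.4 ± 2.04 FPKM. The log2 fold change was 0.79 ± 0.06 (limma adjusted p = 9.3e-06), short of the 1 that a call requires. Of the 50-base stretches in the longest coding transcript, 14.3% for H2-D1 and 8.79% for H2-K1 also occur in transcripts of other genes, and 6.94% of those of H2-K1 occur in H2-D1, so the split of reads between these paralogs is uncertain.

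The H2-K1 to H2-D1 ratio was also higher in every Tyr-H library. H2-K1 made up 20.1%, 17.8% and 18.1% of the summed FPKM of both heavy chains in Tyr-L and 24.8%, 28.1% and 26.8% in Tyr-H. The groups did not overlap, and the log2 ratio was higher by 0.63 in Tyr-H. An exact permutation test gave p = 0.1, two-sided, the smallest that 3 against 3 libraries allow, and 0.18 after Benjamini-Hochberg adjustment over the 11 ratios compared. The summed heavy chains were 16.6 ± 0.835 FPKM in Tyr-L and 31.9 ± 3.02 in Tyr-H.

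B2m (ENSMUSG00000060802, chr2:122147686-122153083, plus strand), the light chain shared by all class I molecules, was the highest of the 10 genes, at 195, 192 and 185 FPKM in Tyr-L and 225, 239 and 255 in Tyr-H. The groups were apart, but the step was small beside the level, from 191 ± 5.14 to 239 ± 15.0 FPKM and a log2 fold change of 0.33 ± 0.05 (limma adjusted p = 0.00027). B2m RNA stood at 11.5 ± 0.519 times the summed heavy chain FPKM in Tyr-L and 7.52 ± 0.244 times in Tyr-H, with the groups apart. Relative to B2m within a library, H2-K1 was higher by 1.09 and H2-D1 by 0.46 on the log2 scale (exact permutation p = 0.1 each, adjusted 0.18).

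**Figure D2:**
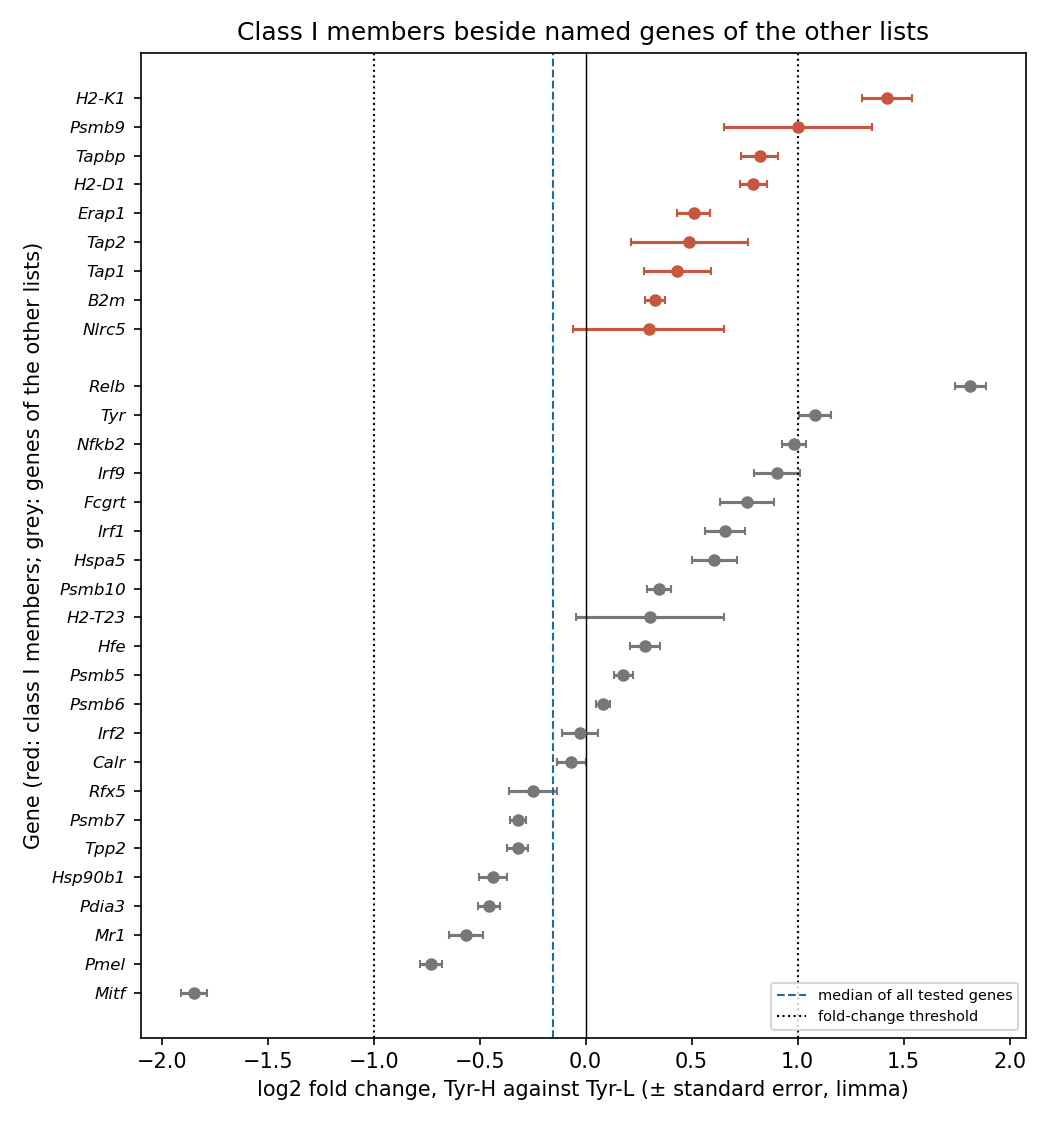
Log2 fold change, Tyr-H against Tyr-L, with its limma standard error for the 9 tested class I genes (red) and tested genes named from the other lists (grey), with the median of all genes tested dashed and log2 changes of 1 and -1 dotted. H2-K1 stands highest of the class I genes at 1.42, and Psmb9 is shown though its test is not used. All 9 class I genes lie to the right of the dashed line, and among them only Nlrc5 has a standard error bar that reaches 0.

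Of the peptide loading complex, tapasin was higher in Tyr-H as the heavy chains were, while the transporter subunits stood at lower levels and their differences were less certain. Tapbp (ENSMUSG00000024308, chr17:33915899-33929292, plus strand) was 6.89, 7.27 and 7.91 FPKM in Tyr-L and 12.3, 12.2 and 14.9 in Tyr-H. The groups were well apart, with a log2 fold change of 0.82 ± 0.09 (limma adjusted p = 4.6e-05). Its exons overlap those of Zbtb22 on the same strand, which was 6.90 and 9.22 FPKM on average, and reads in the overlap could be counted for either gene.

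Tap1 (ENSMUSG00000037321, chr17:34187553-34197225, plus strand) was 1.70, 2.31 and 1.60 FPKM in Tyr-L and 2.19, 2.62 and 2.80 in Tyr-H. Tyr-L library 2 lay above Tyr-H library 1, so the groups overlapped. The log2 fold change of 0.43 ± 0.16 passed at a limma adjusted p of 0.041, and in 7 of 15 alternative settings it did not. Among these were the fits without Tyr-L library 1 (adjusted p = 0.12), Tyr-L library 3 (0.13), Tyr-H library 2 (0.1) or Tyr-H library 3 (0.12). Tap2 (ENSMUSG00000024339, chr17:34203527-34216321, plus strand) was 0.196, 0.332 and 0.378 FPKM in Tyr-L and 0.386, 0.607 and 0.392 in Tyr-H. The groups did not overlap, yet the nearest libraries were almost equal, and the log2 difference of 0.49 ± 0.27 did not pass (limma adjusted p = 0.16). The subunits work as a pair, and the log2 ratio of Tap1 to Tap2 was 2.30 ± 0.415 in Tyr-L and 2.25 ± 0.308 in Tyr-H, with overlapping groups.

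Erap1 (ENSMUSG00000021583, chr13:74639568-74693201, plus strand), which trims peptides to fit class I, was 5.19, 5.54 and 6.03 FPKM in Tyr-L and 7.91, 7.56 and 8.48 in Tyr-H. Every Tyr-H library was higher, with a log2 fold change of 0.51 ± 0.08 (limma adjusted p = 0.00043). Its exons overlap those of Cast on the opposite strand (10.8 and 11.8 FPKM on average), and the sources used here do not say whether strand was used.

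Nlrc5 (ENSMUSG00000074151, chr8:94434356-94527272, plus strand), the transactivator, was 0.496, 1.25 and 0.360 FPKM in Tyr-L and 0.668, 0.797 and 0.895 in Tyr-H. Tyr-L library 2 held the highest value of all 6 and the other Tyr-L libraries the lowest. The log2 difference of 0.30 ± 0.36 did not pass (limma adjusted p = 0.5). It rested on single libraries: without Tyr-L library 2 it was 0.75 with an adjusted p of 0.027, and without Tyr-L library 3 it was -0.02. Within libraries, Nlrc5 relative to H2-K1 was lower in every Tyr-H library, by 1.12 on the log2 scale (exact permutation p = 0.1, adjusted 0.18). Without Tyr-L library 2 that difference was -0.61.

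Psmb8 and Psmb9 were at or close to the estimated limit of detection. Psmb8 (ENSMUSG00000024338, chr17:34197721-34201454, plus strand), the immunoproteasome form of the chymotrypsin-like subunit, was 0.0654, not listed and 0.129 FPKM in Tyr-L and 0.0889, 0.0548 and 0.163 in Tyr-H. A floor of 3 fragments for its longest coding transcript was 0.0873 to 0.0991 FPKM, and 2 Tyr-L and 2 Tyr-H libraries were at or under it. Its mean was under the filter, so its difference was not tested.

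Psmb9 (ENSMUSG00000096727, chr17:34181987-34187764, minus strand), the immunoproteasome form of the caspase-like subunit, had no entry in Tyr-L library 1 and was 0.0949 and 0.0672 FPKM in the others, against 0.193, 0.198 and 0.200 in Tyr-H. With a floor of 0.105 to 0.119 FPKM, the 3 Tyr-L libraries were at or under it and the 3 Tyr-H libraries above. Since it met the filter only through Tyr-H, its test is not used. The fitted log2 difference was 1.00 ± 0.35 with a pseudocount of 0.1 FPKM and ran from 0.18 with 1 FPKM to 2.26 with 0.01 FPKM. Its exons overlap those of Tap1 head to head on the opposite strand, and the deposited tables place both genes in 1 locus.

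The constitutive partners of these subunits were far higher. Psmb5, which Psmb8 replaces, was 116 ± 6.23 and 131 ± 5.35 FPKM in Tyr-L and Tyr-H, and Psmb6, which Psmb9 replaces, was 144 ± 3.29 and 153 ± 3.81. Psmb8 made up at most 0.119% of the summed FPKM of Psmb8 and Psmb5 in any library, and Psmb9 at most 0.132% of Psmb9 and Psmb6. The immunoproteasome subunit Psmb10 behaved differently, at 15.7 ± 1.10 and 19.9 ± 0.505 FPKM with a log2 fold change of 0.35 ± 0.06 (limma adjusted p = 0.00066), while its partner Psmb7 fell by 0.32 ± 0.04 (adjusted p = 9.5e-05). Exons of Psmb7 overlap those of Nek6 on the opposite strand (42.1 and 29.1 FPKM on average), and whether strand was used is not known. Psmb10 made up 7.35%, 8.34% and 8.09% of the pair in Tyr-L and 11.8%, 12.4% and 11.8% in Tyr-H, with the groups apart (exact permutation p = 0.1). The 3 immunoproteasome genes stood at very unequal levels in the same libraries.

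**Figure D3:**
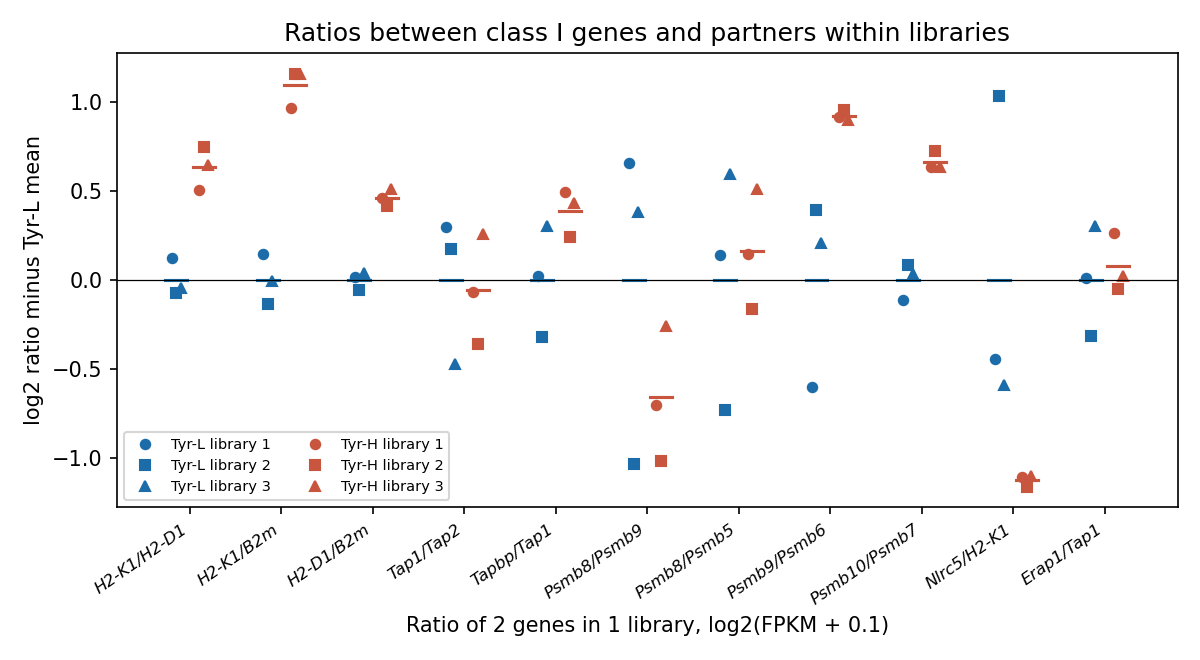
Log2 ratios of FPKM + 0.1 between pairs of class I genes or their proteasome partners within each library (blue Tyr-L, red Tyr-H), set to 0 at the Tyr-L mean of each ratio, with horizontal bars at the group means. Tyr-H libraries lie wholly above Tyr-L for 5 of the 11 ratios, H2-K1/H2-D1, H2-K1/B2m, H2-D1/B2m, Psmb9/Psmb6 and Psmb10/Psmb7, and wholly below for Nlrc5/H2-K1. Psmb9 was at or under its floor in the 3 Tyr-L libraries, so the size of the Psmb9/Psmb6 difference depends on the 0.1 added.

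The order of the levels was nearly the same in both groups. In Tyr-L it ran B2m, H2-D1, Tapbp, Erap1, H2-K1, Tap1, Nlrc5, Tap2, Psmb8 and Psmb9. The libraries of neighbours overlapped only between Nlrc5 and Tap2 and between Psmb8 and Psmb9. In Tyr-H, H2-K1 stood before Erap1, with overlapping libraries, and Psmb9 before Psmb8. B2m lay near the 98th percentile of listed genes in both groups, H2-D1 at 69.1 and 81.0, and Psmb9 at 14.2 and 23.2.

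Genes on the same chromosome stretch did not all share the direction. The 7 class I genes on chromosome 17 span chr17:33915899-35267499, within the mouse MHC. Among the other 59 tested genes there, a set chosen after their values were seen, 16 passed as higher (17.9% of all genes tested) and 12 as lower (39.9% of all) and 31 did not pass, with a median log2 fold change of -0.06. Of all 655 tested genes of the chromosome, 143 were higher and 199 lower, with a median of -0.07. Of the 6 tested class I genes of the stretch, Psmb9 met the filter only through Tyr-H and is set aside. The others were between 0.43 and 1.42.

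**Figure D4:**
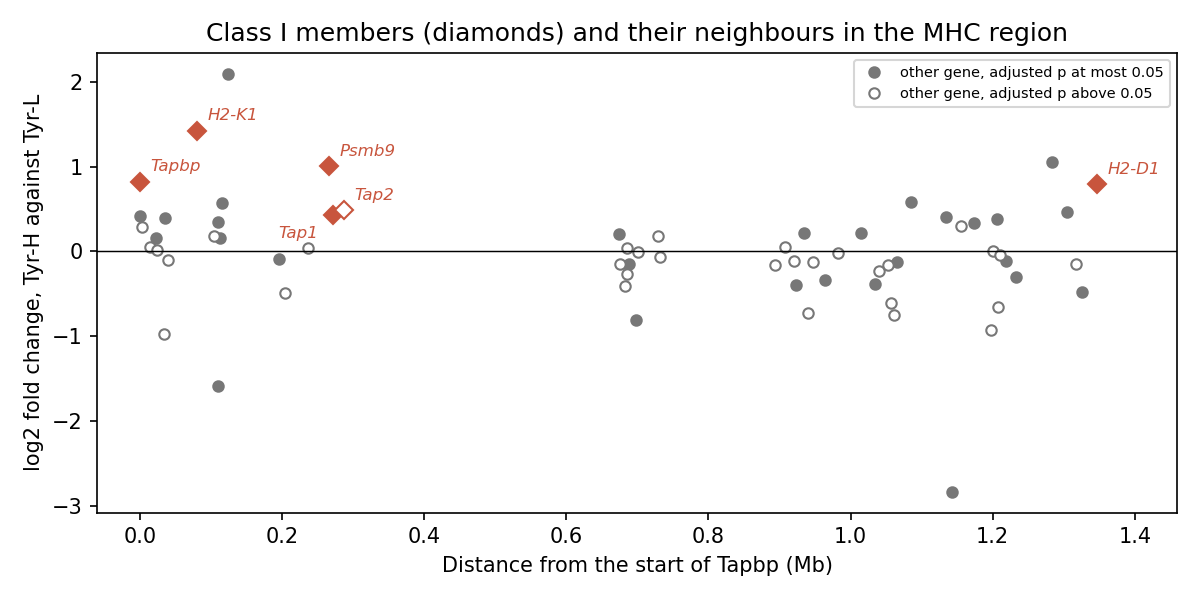
Log2 fold change, Tyr-H against Tyr-L, of the 6 tested class I genes of the MHC region (red diamonds, open for Tap2, which did not pass) and of the 59 other tested genes of the stretch (grey, filled at an adjusted p of at most 0.05), by distance from the start of Tapbp in Mb. The red points lie above 0, from 0.43 for Tap1 to 1.42 for H2-K1, while grey points lie on both sides. Psmb9 is drawn filled, though it met the filter only through Tyr-H and its test is not used.

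The other class I heavy chains were mixed. Of 20 non-classical and class I-like heavy chains, 15 were listed and 10 tested, of which 3 were higher (17.9% of all genes tested), 1 was lower (39.9% of all) and 6 did not pass, with a median log2 fold change of 0.15 (-0.15 over all). Fcgrt, the neonatal Fc receptor, rose by 0.76 ± 0.13 (limma adjusted p = 0.00074), Hfe, of iron regulation, by 0.28 ± 0.07 (0.0077), and H2-T22, named after its value was seen, by 0.24 ± 0.09 (0.038). Mr1, which presents vitamin metabolites, fell by 0.57 ± 0.08 (0.00026). H2-T23, whose Qa-1 molecule presents class I leader peptides, was 0.146, 0.239 and 0.0602 FPKM in Tyr-L and 0.164, 0.169 and 0.253 in Tyr-H and did not pass (adjusted p = 0.48). H2-Q4, also named after its values were seen, was 1.93 and 1.92 FPKM on average. Of its 50-base stretches 24.3%, and of those of H2-T23 28.8%, occur in other genes.

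Of 10 other genes of peptide loading and chaperoning, most of which serve other proteins too, 1 was higher, 5 were lower and 4 did not pass, near the shares of all genes (17.9% higher and 39.9% lower). After median ratio scaling 2 were higher and 2 lower, with 27.8% and 27.0% of all genes. After quantile normalization 1 was higher and 5 lower, with 26.0% and 27.8% of all genes. With totals made equal, 1 was higher and 8 lower, with 13.0% and 47.8% of all genes, so the balance of this list depends on the scaling. Pdia3, the disulphide isomerase that pairs with tapasin, fell by 0.46 ± 0.05 (limma adjusted p = 6.1e-05) and Hsp90b1 by 0.44 ± 0.07 (0.00041), while Hspa5, a chaperone of the unfolded protein response, rose by 0.61 ± 0.11 (0.00094). Canx, Uggt1 and Pdia6, named after their values were seen, were lower by at most 0.15. Calreticulin (Calr) was 382 ± 10.2 and 366 ± 39.4 FPKM and did not pass (adjusted p = 0.42). In the supply of peptides from the cytosol, 8 of 16 genes were higher (17.9% of all genes), 5 lower (39.9% of all) and 3 did not pass, with changes of at most 0.35 in size, among them Tpp2, a peptidase that fell by 0.32 ± 0.05 (0.00034). Rescaled to equal totals, 3 were higher and 6 lower, with 13.0% and 47.8% of all genes.

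Among 29 known regulators of class I transcription, 27 were tested, of which 8 were higher (17.9% of all genes), 12 lower (39.9% of all) and 7 did not pass. After median ratio scaling or quantile normalization, 13 were higher and 6 lower, so the balance of this list depends on the scaling, as that of all genes does (27.8% higher and 27.0% lower after the former, 26.0% and 27.8% after the latter). Among the tested genes of the list the largest changes were in Relb and Nfkb2, known as the non-canonical branch of NF-kappaB. Relb was 3.97, 4.46 and 4.14 FPKM in Tyr-L and 14.4, 14.6 and 16.1 in Tyr-H, a log2 fold change of 1.82 ± 0.07 (limma adjusted p = 2.4e-07) and the only call of the list. Under either of these scalings 3 genes of the list were called, Nfkb2 and Irf9 besides Relb. Nfkb2, its partner, rose by 0.98 ± 0.06 (1.4e-06) from 9.69 to 19.2 FPKM.

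Of the interferon-linked factors, Irf9, the DNA-binding part of ISGF3, rose by 0.90 ± 0.11 (limma adjusted p = 9.9e-05) and Irf1, an activator of class I promoters, by 0.66 ± 0.09 (0.00026). Relb, Nfkb2, Irf9 and Irf1 kept their direction under each scaling. Irf9 shares exons with Rnf31 on the same strand. Irf2, which binds the same sites as Irf1, was 7.57 ± 0.438 and 7.45 ± 0.753 FPKM and did not pass (adjusted p = 0.81). Rfx5, of the RFX complex, was 3.12 and 2.60 FPKM and did not pass either (0.091).

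Among the 12 lower regulators, named here after their values were seen, were factors of the promoter module described above. Of the NF-Y subunits, Nfya fell by 0.56 ± 0.05 (limma adjusted p = 8.8e-06), Nfyc by 0.34 ± 0.05 (0.00038) and Nfyb by 0.18 ± 0.06 (0.024). The RFX subunits Rfxap and Rfxank fell by 0.47 ± 0.13 (0.011) and 0.38 ± 0.12 (0.022), and Creb1 and Atf1 by 0.25 ± 0.05 (0.0028) and 0.22 ± 0.04 (0.0022). Under median ratio scaling and under quantile normalization these 7 stayed below 0, but of them only Nfya and Nfyc still passed. Ezh2, the methyltransferase of Polycomb repressive complexes, fell by 0.66 ± 0.05 (4.5e-06), its partners Eed and Suz12 by 0.36 ± 0.07 (0.0022) and 0.32 ± 0.06 (0.0016), and the interferon receptor chain Ifnar1 by 0.45 ± 0.07 (0.00033), and these 4 passed under each scaling. Jak2, a kinase of interferon-gamma signals, fell by 0.31 ± 0.09 (0.013) and did not pass under median ratio scaling (0.15) or quantile normalization (0.17). Some of the higher regulators are also named after their values were seen. Jak1 rose by 0.12 ± 0.05 (limma adjusted p = 0.049) and Ifngr2 by 0.14 ± 0.05 (0.035). Rescaled to equal totals, neither of these passed (0.69 and 0.53). Rela, an NF-kappaB subunit, rose by 0.37 ± 0.05 (0.00028) and passed under each scaling.

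Ciita, the class II counterpart of Nlrc5, was at most 0.00797 FPKM in any library and was not tested. Irf8, an interferon regulatory factor named after its values were seen, was also under the filter. Among the Tyr-L libraries it was listed in library 1 alone, at 0.0198 FPKM, and it was 0.141, 0.0931 and 0.314 FPKM in Tyr-H, above its floor of 0.0499 to 0.0567 FPKM.

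The class II genes were at low levels or unlisted. Of 11, 5 were listed and 3 tested, and 1 passed as higher (17.9% of all genes), Cd74, the invariant chain, named after its value was seen. It was 0.0346, 0.0624 and 0.0355 FPKM in Tyr-L and 0.518, 0.776 and 0.641 in Tyr-H. With a floor of 0.101 to 0.114 FPKM, the 3 Tyr-L libraries were at or under it and the 3 Tyr-H libraries above, and Cd74, like Psmb9, met the filter only through Tyr-H and had to be higher there, so its test is not used. The class II chains H2-Aa and H2-Ab1 were listed in no library.

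Of 10 melanoma cell markers, 9 were tested, with 2 higher (17.9% of all genes) and 7 lower (39.9% of all), and after median ratio scaling 2 were higher and 5 lower (27.8% and 27.0% of all genes). Mitf, the master regulator of the lineage, fell by 1.85 ± 0.06 (limma adjusted p = 1e-07) and Pmel by 0.73 ± 0.05 (4.7e-06), whereas Tyr rose by 1.08 ± 0.08 (4e-06). Their part in the class I difference was not tested.

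A mean pattern over the 6 libraries was taken from the 9 tested class I genes, including Psmb9, which met the filter only through Tyr-H. The genes whose pattern was most like it were Akna, Lgals3bp, Il17ra, Myof and Slc7a1. Likeness was the mean absolute difference of centred log2(FPKM + 0.1), and it was 0.026 for Akna, 0.0264 for Lgals3bp and 0.0471 for Slc7a1. Being chosen for that likeness, they had to be higher in Tyr-H. Their log2 differences were 0.63 to 0.75, at levels from 4.18 FPKM for Akna to 75.1 for Lgals3bp.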

How the data were processed

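The labels gave the condition and number of each library, 3 Tyr-L and 3 Tyr-H. Poly(A) RNA had been sequenced as paired 150 bp reads. The submitters' processing notes name Trimmomatic, HISAT2 and HISAT and the build GRCm38.p6. The quantifier, its annotation and strand use are not given in the sources used here. The authors deposited 1 table of FPKM per library, already scaled to transcript length and depth. Genes not listed in a table were taken as 0. The class I genes, the other lists, the motifs and the tests were chosen with earlier results of these data known, and the AANNGAAA motif was added after the promoters were seen.

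Differences were tested with limma 3.58.1 in R 4.3.3 on log2(FPKM + 0.1), for 14336 genes whose mean reached 0.1 FPKM (lmFit, eBayes with a trend, Benjamini-Hochberg adjustment), where a pseudocount understates the change of low genes. A call required an adjusted p of at most 0.05 and a log2 fold change of at least 1 in size. Ratios within libraries had an exact permutation test, two-sided. The limma step was tested on simulated data. Low values were within 0.1 of a whole number of fragments for only 23.9% to 29.3% of values, so no count test was run. The floor of 3 fragments uses the longest coding transcript and the depth estimated within a set window, so it is approximate. It covers counting error only, and an error in the depth moves every floor. Coordinates, counted from 1, and overlaps came from GENCODE M21 (GRCm38). Named were the 10 class I genes, of each other list the 3 with the largest change that passed at a mean of at least 1 FPKM, 13 genes fixed by name (1 is not reported here), and the 5 nearest patterns. Alternatives were other pseudocounts, filters and scalings, no variance trend, a replicate block and each library left out.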

Additional observations from a re-analysis of the deposited data

How the results depend on the processing

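The directions of H2-K1, H2-D1, B2m, Tapbp and Erap1 and their passing of the test held in all 16 settings, and H2-K1 was called in each. Counted with Psmb9, whose test is not used, the number of class I genes called higher was 1, H2-K1, in place of 2 with a pseudocount of 0.01 or of 1 FPKM, under the stricter filter (a mean of 1 FPKM or more) and with the replicate block, and 7 with no threshold on the fold change. The median of the tested class I genes was 0.62 with a pseudocount of 0.01 FPKM, 0.33 with 1 FPKM, 0.65 under the stricter filter (6 genes), 0.66 after median ratio scaling and 0.70 after quantile normalization. Over all genes, 388 were called with a pseudocount of 1 FPKM (185 higher), 640 under the stricter filter (247 higher) and 8292 with no threshold on the fold change (2570 higher).

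Leaving out each library in turn gave 1 to 2 class I genes called higher, counted in the same way, and a median of 0.46 to 0.67. H2-K1 was called in each of these fits. Log2 ratios with overlapping groups changed sign, Tap1 to Tap2 between -0.29 and 0.095, Psmb8 to Psmb5 between -0.20 and 0.46 and Erap1 to Tap1 between -0.081 and 0.23. So did the log2 differences of Nlrc5, between -0.022 and 0.75, of Irf2, between -0.094 and 0.050, and of Calr, between -0.13 and 0.022.

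The replicate numbers did not pair the libraries: same-numbered Tyr-L and Tyr-H libraries had correlations of deviations of 0.00904, 0.0342 and -0.173, and not every library correlated best with its own number. With the replicate block, 1258 genes were called in place of 1254. With a pseudocount of 1 FPKM the log2 ratio of Tap1 to Tap2 was higher by 0.14 and that of Psmb8 to Psmb5 was -0.13. After median ratio scaling and quantile normalization Irf2 was 0.13 and 0.14, after the former Calr was 0.086, and rescaled to equal totals Psmb6 was -0.014, none of which passed. Calr passed as lower after quantile normalization (-0.20, limma adjusted p = 0.013) and rescaled to equal totals (-0.16, 0.029). Psmb6 passed as higher after median ratio scaling (0.23, 0.00032) and quantile normalization (0.099, 0.02). The cause of these changes was not tested. The values of Psmb8 and Psmb9 were close to a floor that rests on the estimated depth, so their differences are uncertain.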
